A study of Oryzias latipes with 2 samples.

Results

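The genes described here are those whose share of transcripts varied least between cell types of the medaka pituitary, together with *rpl7* (ENSORLG00000007967), the reference gene of the study's qPCR. They came from single-cell RNA sequencing (scRNA-seq) by 10x Chromium droplets (3′ reagents, v2), a method that tags the 3′ end of each captured transcript with a unique molecular identifier (UMI). UMIs were summed by annotated cell type and sex and divided by the total, as counts per 1000000 UMIs (CPM). The rule took 7 annotations (*lhb*-expressing gonadotropes, *fshb*-expressing gonadotropes, gonadotrope-like cells, lactotropes, somatotropes, melanotropes and uncharacterized cells) in both sexes, which gives 14 groups. Genes with 100 CPM or more in each group were ranked by their highest over their lowest CPM, and the 150 with the lowest ratio were kept. The floor was passed by 315 of the 19483 genes counted in either library, so the list holds 150 of 315 genes and leaves 165 others. The GFP cassette of the transgene is counted among these others.

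Both groups of fish were adults of about 8 months of the d-rR lhb:GFP genotype, in which the *lhb* promoter drives GFP. Pituitaries of 24 females were pooled into 1 library and those of 23 males into another. Female and male library therefore cannot be told apart from female and male fish, and there is no replicate and no test between the sexes. Cells, like genes, were not taken as replicates.

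The female library held 2592 cells and 11750195 UMIs and the male library 3804 cells and 17691130 UMIs. The 7 types of the rule made up 1977 and 2931 of these cells, with a median of 4213 and 3910 UMIs per cell. Summed UMIs of the 14 groups ran from 394800 in female somatotropes to 4914410 in male *lhb*-expressing gonadotropes. In these 14 groups the smallest count behind a value of a listed gene was 40 UMIs. Of all cell barcodes, 16 occurred in both libraries. Each hormone-encoding gene was highest in the type named for it, as with *prl* at 247502 CPM in female lactotropes against at most 5676 CPM in any other female type. Male thyrotropes also held 54969 CPM of *pomca*. The uncharacterized cells have no marker that defines them.

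A gene with a steady level is what a reference gene for qPCR is chosen for, since the level of the gene of interest is divided by it. Genes of protein synthesis, energy metabolism, the cytoskeleton and protein turnover are commonly used, because every cell needs their products. *rpl7* encodes a protein of the large ribosomal subunit. A CPM is a share, so that a transcript which takes up much of a cell's RNA lowers the CPM of all other genes. Endocrine cells are a marked case, since a single hormone mRNA can make up a large part of the total.

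The tables used here pair 62 identifiers with a gene name, and these include 16 of the 315 genes above the floor and 0 of the 150 listed genes. No function is given to a listed gene for that reason, and only the few that the results turn on are named by identifier. All 16 named genes above the floor ranked below the list. Apart from *rpl7*, the names come from the authors' marker genes and the paper's hormone primers. Such genes are picked for differing between cell types, so their place outside the list was likely from the start. They were *rpl7* and 15 genes from rank 285 on, among them *cga*, the shared alpha subunit of the glycoprotein hormones, at a ratio of 40.3, and *gh*, which encodes growth hormone, at 728, the highest of all 315.

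Ratios of the listed genes, which the rule itself fixes, ran from 1.68 to 3.51 with a median of 2.85. The other 165 genes ran from 3.52 to 728 with a median of 4.92. Only 8 listed genes stayed under a ratio of 2, which are also all such genes above the floor (2.54% of 315), 95 stayed under 3, and 55 lay at 3 or more. "Even" is thus relative. The end of the list fell on a smooth slope near the median of all genes above the floor, 3.59. ENSORLG00000005349, the last gene inside, had a ratio of 3.51, with 685 CPM in male gonadotrope-like cells and 195 CPM in male melanotropes. ENSORLG00000002475, the first gene outside, had a ratio of 3.52, with 1104 CPM in female somatotropes and 314 CPM in male melanotropes.

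**Figure D1:**
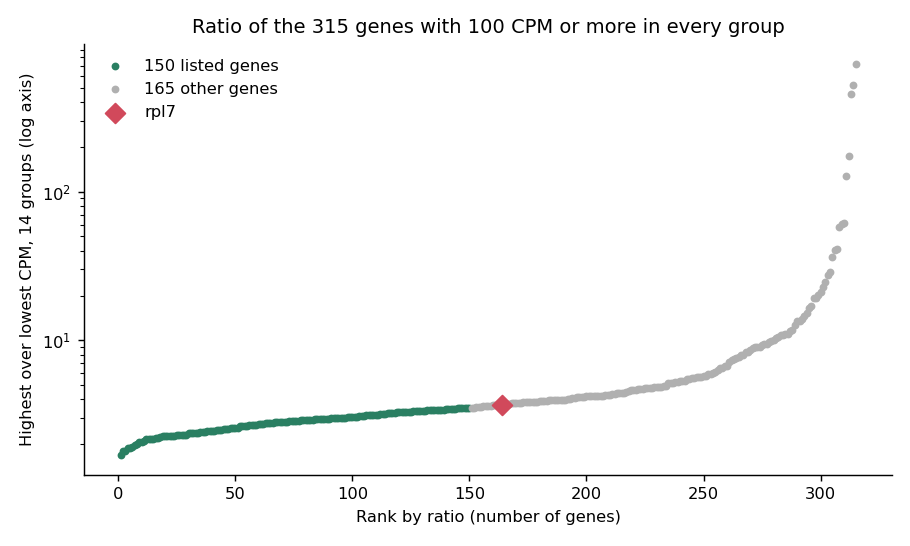
Highest over lowest CPM of the 14 groups (log axis) against rank for the 315 genes above the floor, each point 1 gene. The 150 listed genes (green) rise from 1.68 to 3.51 without a step at the end of the list, and *rpl7* (red diamond) lies just beyond it, at 3.69 and rank 164.

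The gene with the lowest ratio was ENSORLG00000012697. In females it had 296 CPM in *lhb*-expressing gonadotropes, 281 CPM in *fshb*-expressing gonadotropes, 288 CPM in gonadotrope-like cells, 293 CPM in lactotropes and 277 CPM in uncharacterized cells. Female melanotropes had 214 CPM and female somatotropes 185 CPM of it. In males the same order of types gave 246, 254, 258, 267 and 256 CPM, against 176 CPM in melanotropes and 178 CPM in somatotropes. The gene thus held nearly 1 level in 5 types of each sex and a lower level in the other 2 types. Its exon and spanning UMIs together came to 61.0% of its UMIs in the matrix. Spanning UMIs made up 45.1% of its exon, intron and spanning UMIs. Levels of the 150 genes, as the geometric mean of the 14 groups, ran from 135 to 9676 CPM with a median of 361 CPM, against a median of 1027 CPM in the other genes above the floor. A mean above 1000 CPM was found in 35 listed and 84 other genes.

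A single cell type set most of the ratios. The lowest of the 14 values fell in melanotropes, the *pomca*-expressing cells that make melanocyte-stimulating hormone, in 137 of the 150 genes, 121 times in males and 16 times in females. Over all genes above the floor the share was close to that, with 265 of 315 (84.1%). No listed gene had its highest value in melanotropes. The median level of the listed genes was 197 CPM in male and 244 CPM in female melanotropes. In the other 12 groups it lay between 309 CPM, in male somatotropes, and 455 CPM, in female gonadotrope-like cells. The 150 genes together took 6.97% of the UMIs of male and 8.61% of those of female melanotropes, and from 12.1% to 16.6% in the other 12 groups. The remaining 13 minima lay in male uncharacterized cells (8 genes), male *lhb*-expressing gonadotropes (2 genes), female somatotropes (2 genes) and male gonadotrope-like cells (1 gene).

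Hormone-encoding transcripts moved with this pattern. The 7 genes *lhb*, *fshb*, *tshba*, *prl*, *gh*, *sl* and *pomca* took 57.7% of the UMIs in female and 63.7% in male melanotropes. They took between 20.1% and 28.0% in lactotropes and somatotropes, and between 1.07% and 13.9% in the gonadotropes, gonadotrope-like and uncharacterized cells. With these 7 genes left out of the total, melanotropes held 0 of the 150 minima and 61 of the 150 maxima (21.6% of all 315 genes), 38 in females and 23 in males. The minima then fell mostly in male *lhb*-expressing gonadotropes (65 genes) and male uncharacterized cells (42 genes). Minima on this total were counted over the listed genes only. Whether their places are particular to the list was therefore not tested. The listed genes together then took 20.4% and 19.2% of the remaining UMIs in female and male melanotropes, against 13.1% in male *lhb*-expressing gonadotropes and 22.5% in male somatotropes. The GFP cassette and *cga* were still in that total, and took 21.7% and 9.61% of all UMIs in male and 11.3% and 10.1% in female *lhb*-expressing gonadotropes. With these left out too, a total chosen after the data were seen, male *lhb*-expressing gonadotropes held 0 of the minima and the listed genes took 19.9% of their remaining UMIs. The minima then fell mostly in uncharacterized cells, 64 in males and 21 in females, and melanotropes held 3 minima and 48 maxima. On this total neither minima nor maxima were counted over all 315 genes, so the counts describe the listed genes without a background. Melanotropes were also the deepest cells, with a median of 9160.5 UMIs in females and 18325 in males. With every cell thinned to 2200 UMIs and shallower cells left out, the 150 lowest ratios had a median of 2.86. They included 115 of the listed genes. Where the minima fell after thinning was not counted, so the part of depth in this pattern was not tested.

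**Figure D2:**
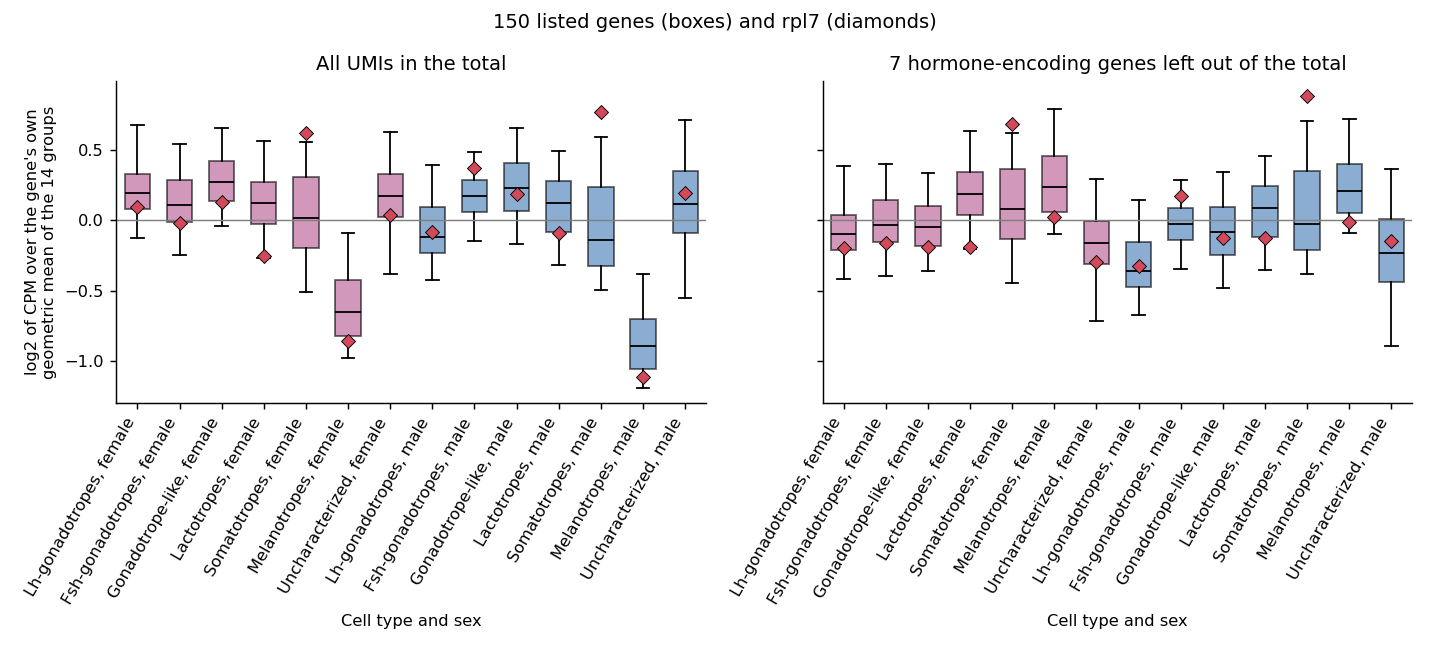
Log2 of the CPM of each listed gene over its own geometric mean of the 14 groups, in females (pink) and males (blue), with all UMIs in the total (left) and without those of the 7 hormone-encoding genes (right). Boxes hold the middle 50% of the 150 genes with the median as a line, whiskers reach the 5th and 95th percentile, and red diamonds are *rpl7*. Both melanotrope groups lie lowest on the left and among the highest on the right.

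The genes chosen depended on that total. Without the hormone-encoding genes 523 genes passed the floor, and the 150 lowest ratios among them included 55 of the listed genes. Of the 150 listed genes, 66 then had a ratio under 2, beside 25.1% of the 315, and their median ratio was 2.06. Leaving melanotropes out while keeping the total gave 107 listed genes with a ratio under 2, beside 47.0% of the 315, and a median of 1.84. The rule chose the listed genes for low ratios, so larger shares under 2 than over all 315 were likely from the start. ENSORLG00000012697 rose from 1.68 to 2.05 without the hormone-encoding genes in the total, and was then at rank 200 of 523.

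The paper used *rpl7* on RNA of whole pituitaries to compare sexes and stages, and reports no significant difference between those groups. A ranking over cell types asks another question, and steadiness in whole glands was not tested here. Across cell types *rpl7* had a ratio of 3.69 (3.52 to 3.87, counting error only) and rank 164 of 315. All 150 listed genes thus had a lower ratio. In females its level was 4924 CPM in *lhb*-expressing gonadotropes, 4547 CPM in *fshb*-expressing gonadotropes, 5033 CPM in gonadotrope-like cells, 3852 CPM in lactotropes, 7080 CPM in somatotropes, 2543 CPM in melanotropes and 4719 CPM in uncharacterized cells. In males the same types gave 4355, 5944, 5245, 4321, 7857, 2130 and 5269 CPM. Somatotropes were highest and melanotropes lowest in both sexes. Female *lhb*-expressing gonadotropes (4842 to 5006 CPM) and female gonadotrope-like cells (4946 to 5120 CPM) had overlapping counting intervals, as had male lactotropes (4250 to 4392 CPM) and male *lhb*-expressing gonadotropes (4297 to 4414 CPM). Without melanotropes the ratio of *rpl7* was 2.04 and its rank 153 of the same 315 genes. Without the hormone-encoding genes in the total the ratio was 2.31 and the rank 277 of 523, with 4717 CPM in male *lhb*-expressing gonadotropes as the lowest and 10912 CPM in male somatotropes as the highest value.

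A reading that does not use all UMIs of a group is the number of *rpl7* UMIs per 1000 UMIs of the 150 listed genes. The listed UMIs are themselves a total, in which abundant listed genes weigh most. It was 29.5 (28.0 to 31.1) in female and 30.5 (29.2 to 31.9) in male melanotropes, within the range of the other groups. It was highest in somatotropes, with 42.6 (41.0 to 44.2) in females and 48.4 (47.4 to 49.5) in males, and lowest in lactotropes, with 26.0 (25.3 to 26.6) and 28.7 (28.3 to 29.2). The remaining 8 groups lay between 29.6 and 39.1. The order of lactotropes below and somatotropes above all other types of the rule was the same in both libraries. *rpl7* per listed UMI was higher in the male than in the female library in each of the 7 types. In melanotropes alone the intervals of the sexes overlapped. These intervals cover counting error only and are no test between the sexes. The share of the listed UMIs differed between the libraries too. It was higher in males in *fshb*-expressing gonadotropes (15.2% against 14.5%) and lactotropes (15.0% against 14.8%), and lower in males in the other types of the rule. A higher CPM in females in all 7 types was found in 22 listed genes (13.7% of all 315). In males this held for 1 listed gene (0.952%). The part of the listed UMIs in the quotient was not tested. As CPM, *rpl7* was lower in males in *lhb*-expressing gonadotropes (male over female 0.88) and melanotropes (0.84). It was higher in males in the other types of the rule (1.04 to 1.31).

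**Figure D3:**
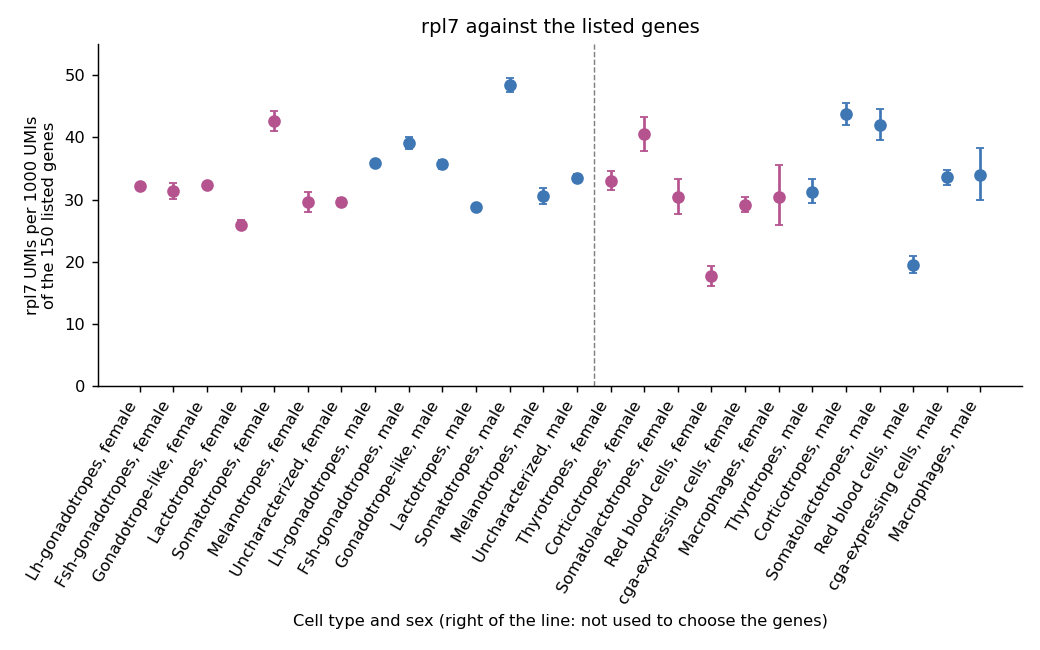
*rpl7* UMIs per 1000 UMIs of the 150 listed genes in each cell type, in females (pink) and males (blue), with 95% intervals that cover counting error only. The 14 groups of the rule stand left of the line, where somatotropes reach 42.6 and 48.4, and red blood cells, right of the line, are lowest at 17.7 and 19.5. In red blood cells the listed genes took 9.17% and 10.3% of all UMIs, of which ENSORLG00000002480 alone had 15203 and 19173 CPM.

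The 2 libraries were also used 1 at a time, so that the list from 1 could be read in the other. In the female library alone 392 genes passed the floor, and its 150 lowest ratios ended at 2.44. Of these 150 genes, 107 passed the floor in the male library, with a median ratio of 2.51 there against 3.43 over all 320 genes above the male floor. The 150 genes of the male library ended at 3.36. Of them 147 passed the floor in the female library, with a median ratio of 2.26 against 2.72 over all 392 genes. The 2 lists shared 102 genes of 150 each. The chosen genes that passed the floor of the other library had, at the median, a lower ratio there than all genes above that floor. Left out of this reading were 43 genes of the female list that did not reach the male floor. All genes above a floor include hormone-encoding genes, and both libraries hold the same types with hormone-rich melanotropes. The values are thus a description. *rpl7* was at rank 207 of 392 in females (ratio 2.78) and 179 of 320 in males (ratio 3.69).

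Cell types that the rule left out give a reading of the same genes on other cells of the same libraries. A gene was counted as within range when its CPM lay within 1.5-fold of its geometric mean over the 14 groups, and the share of all 315 genes within range is given beside each count. In thyrotropes, which make thyroid-stimulating hormone, 139 of the 150 genes in females (85.4% of all) and 142 in males (83.8% of all) were within range. In corticotropes, the *pomca*-expressing cells that make adrenocorticotropic hormone, these counts were 134 (78.7%) and 142 (83.8%). In somatolactotropes, which make somatolactin, they were 124 (67.9%) and 135 (81.6%). In each of these 6 groups the listed genes were within range more often than the other 165, which had 90 to 130 within range. Within range in all 6 groups were 94 listed and 48 other genes. The rule itself gave the other genes wider ratios over the 14 groups that set the mean. A difference in this direction was therefore likely from the start, and is no support for the list. Female somatolactotropes rest on 15 cells, and the smallest count of a listed gene there was 10 UMIs.

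Other cells of the libraries held the listed genes at levels further from their mean. Red blood cells of fish are nucleated, and here they were shallow, with a median of 518 UMIs in females and 503 in males. Only 36 listed genes in females (16.5% of all) and 41 in males (22.5% of all) were within range there. The level was more than 1.5-fold below the mean in 104 listed genes in females (78.7% of all 315) and 98 in males (72.7%), 93 of them in both sexes (71.1%). It was more than 1.5-fold above the mean in 10 listed genes in females (4.76%) and 11 in males (4.76%), 8 of them in both (3.81%). The median fold to a gene's own mean was 0.43 in females and 0.52 in males, against 0.33 and 0.40 over all 315 genes. A low share of all UMIs in red blood cells was thus general to the genes above the floor. Haemoglobin genes took much of the total there, with *gb* at 275672 CPM in females and 294647 CPM in males. For *hbbe2* the values were 215949 and 150765 CPM, and for a further haemoglobin gene 84924.5 and 85332.9 CPM. No total without these genes was computed, so their part in the low shares was not tested. *rpl7* was at 1623 and 2005 CPM in red blood cells, below its level in all 14 groups of the rule, although the male counting interval (1867 to 2151 CPM) overlapped that of male melanotropes (2039 to 2223 CPM). Hormone-encoding UMIs were 0.748% and 1.45% of the total in red blood cells, which should not make them, and whether free RNA adds to the listed genes there was not tested.

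ENSORLG00000002480 went furthest the other way. In the 7 types of the rule it ran from 282 to 583 CPM in females and from 222 to 678 CPM in males. In red blood cells it reached 15203 CPM in females and 19173 CPM in males, which is 34.0-fold and 43.4-fold over the median of the 7 types. Macrophages had 1449 and 1668 CPM. The haemoglobin genes, which define red blood cells, stood higher still over the 7 types, with *gb* 1429-fold and 828-fold and *hbbe2* 1946-fold and 937-fold above the median. Exon and spanning UMIs together came to 37.3% of this gene's UMIs in the matrix.

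Cells annotated as *cga*-expressing had higher levels of many listed genes, as shares of all UMIs. Within range were 79 listed genes in females (59.0% of all) and 76 in males (57.8% of all), fewer than the 107 and 106 of the other 165 genes. Above it were 70 listed genes in females (33.7% of all 315) and 70 in males (32.4%), 63 of them in both (29.8%). The median fold to a gene's own mean was 1.44 and 1.40, against 1.18 and 1.12 over all 315 genes. The size of these folds depended on the total. Computed without hormone-encoding UMIs, the median fold of the listed genes was 1.14 in females and 1.11 in males. That change scales the folds of all genes in a group alike. The standing of the listed genes against all 315 is therefore unchanged by it. ENSORLG00000015817 was the furthest above, with 1154 CPM in females and 1165 CPM in males, against 239 to 693 CPM in the 14 groups. It was also higher in gonadotrope-like cells, at 652 and 693 CPM, than in the other types of the rule, and low in red blood cells, at 23.6 and 43.5 CPM. Even the gene with the lowest ratio, ENSORLG00000012697, had 692 and 695 CPM in *cga*-expressing cells, more than in any group of the rule.

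**Figure D4:**
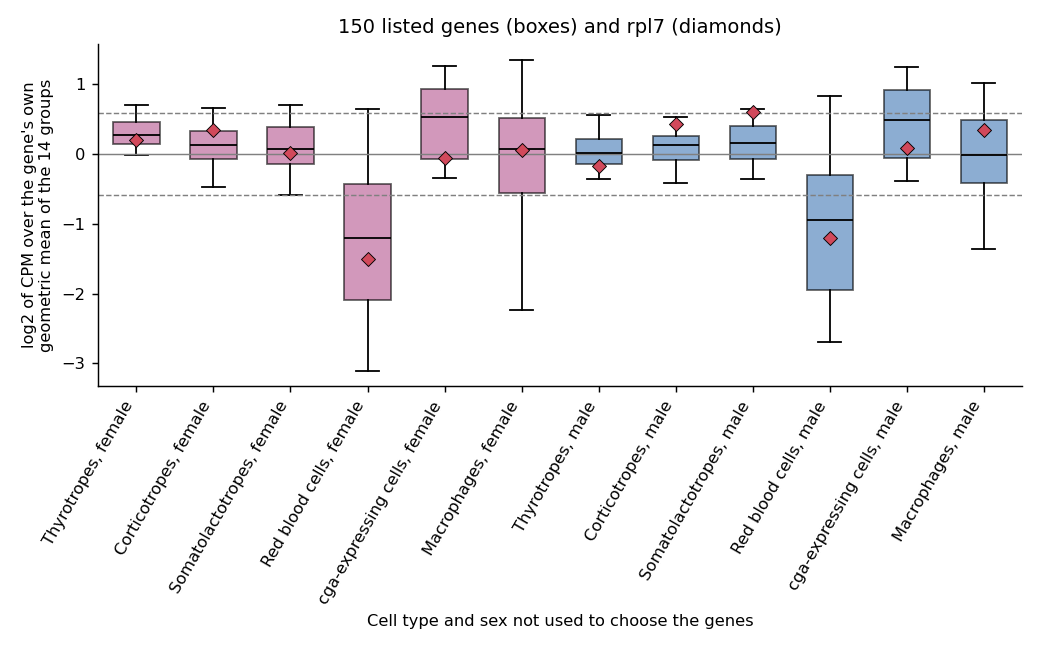
Log2 of the CPM of each listed gene over its own geometric mean of the 14 groups, in the 6 types that the rule left out, in females (pink) and males (blue). Boxes hold the middle 50% of the 150 genes, whiskers reach the 5th and 95th percentile, red diamonds are *rpl7*, dashed lines mark 1.5-fold, and values under 1 CPM are drawn at 1 CPM. Thyrotropes, corticotropes and somatolactotropes lie mostly between the dashed lines, and red blood cells lie mostly below them.

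Macrophages, of which each library held 15 cells, had the listed genes at a median fold of 1.05 in females and 0.99 in males to their own mean over the 14 groups. Within 1.5-fold were 83 listed genes in females (49.8% of all 315) and 86 in males (48.9%). Above it in both sexes were 17 listed genes (15.9% of all), and below it in both were 19 (16.8%). The counts behind these values were small, with a median of 12 UMIs per listed gene in females and 16 in males, and 1 listed gene was at 0 in males. *rpl7* was at 4770 CPM (4055 to 5575) and 5827 CPM (5133 to 6587) in macrophages, inside its range over the 14 groups.

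Male over female CPM had a median over the listed genes between 0.98 and 1.03 in *fshb*-expressing gonadotropes, gonadotrope-like cells, lactotropes, somatotropes and uncharacterized cells. It was lower in *lhb*-expressing gonadotropes (0.83) and melanotropes (0.84), as it was over all 315 genes (0.84 and 0.80). The GFP cassette took 21.7% of the UMIs in male and 11.3% in female *lhb*-expressing gonadotropes, and the 7 hormone-encoding genes 7.67% and 4.65%. In melanotropes the hormone-encoding genes took 63.7% in males and 57.7% in females. Medians over the listed genes were also read on a total without *cga*, GFP cassette and hormone transcripts, chosen after the data were seen. They were then 1.01 in *lhb*-expressing gonadotropes and 1.07 in melanotropes, but 0.93 in lactotropes and 0.95 in uncharacterized cells. The other types of the rule lay between 1.01 and 1.02. Leaving out only the 7 hormone transcripts gave 0.86 in *lhb*-expressing gonadotropes and 0.98 in melanotropes. As shares of all UMIs, 17 listed genes were past 1.5-fold in either direction in *lhb*-expressing gonadotropes (14.3% of all 315) and 15 in melanotropes (21.0%). The counts were 4 in *fshb*-expressing gonadotropes (6.03%), 4 in gonadotrope-like cells (4.13%), 5 in lactotropes (7.94%), 6 in somatotropes (8.25%) and 5 in uncharacterized cells (9.52%). In the types the rule left out, the counts were 20 in thyrotropes (20.6%), 7 in corticotropes (6.03%), 43 in somatolactotropes (38.1%), 17 in red blood cells (16.2%), 5 in *cga*-expressing cells (5.71%) and 58 in macrophages (38.4%), the largest counts being in macrophages and somatolactotropes, the types with the fewest cells. The values of the 7 types of the rule come from 1 library of each sex and enter the ratio that chose the genes. Higher in females in all 7 types were 22 listed genes (13.7% of all 315), and 1 was higher in males in all 7 (0.952%), shares close to those over all genes above the floor.

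A few listed genes were nearly flat within a library, as shares of all UMIs, and differed between the libraries. ENSORLG00000002368 had 3557, 4611, 3750, 3840, 3655, 3437 and 3873 CPM in female *lhb*- and *fshb*-expressing gonadotropes, gonadotrope-like cells, lactotropes, somatotropes, melanotropes and uncharacterized cells. In the same types of males it had 1755, 2052, 1933, 1924, 1930, 1734 and 2030 CPM. Its female values did not overlap its male values, and male over female lay between 0.44 and 0.53 in every type. ENSORLG00000011320 had 1751, 1847, 1836, 1860, 1793, 1448 and 2117 CPM in these types of females and 881, 1034, 946, 927, 999, 749 and 1119 CPM in males, with male over female between 0.50 and 0.56. For both genes the ratio of the rule, 2.66 and 2.83, came mostly from the difference between the libraries. Within males alone ENSORLG00000002368 had a ratio of 1.18 over the 7 types, the lowest of the 150 genes.

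Melanotropes were the lowest of the 7 types for both genes in each sex, but by little, since the ratio over the 7 types was 1.34 in females and 1.18 in males for ENSORLG00000002368 and 1.46 and 1.49 for ENSORLG00000011320. The median ratio over the listed genes was 2.28 in females and 2.67 in males. This flatness depends on the total. The 7 hormone-encoding genes took 57.7% of the UMIs in female and 63.7% in male melanotropes. With them left out, both genes would be higher in melanotropes than in the other types of the rule. ENSORLG00000002368 had 3764 CPM in female and 2031 CPM in male red blood cells, and ENSORLG00000011320 had 1670 and 1178 CPM, both close to their levels in the endocrine cells of the same library. Over all 13 annotated types, red blood cells and macrophages included, ENSORLG00000002368 ran from 3095 to 4611 CPM in females and from 1678 to 2353 CPM in males. The highest value was 1.49-fold and 1.40-fold over the lowest. For ENSORLG00000011320 these folds were 1.47 and 1.57. A gene at rank 17 of the list had 1.62 and 1.49, with a male over female ratio of 0.63 between the medians of its types. These 3 genes were the only ones of the 315 above the floor with a fold under 1.7 over 13 types in each library (0.952% of 315), a limit chosen after the values were seen. Under a fold of 2 (1.27% of 315) came 1 more gene, ENSORLG00000023529, at rank 154 and thus outside the list. It had 1.90 in females and 1.83 in males, with a male over female ratio of 0.50 between the medians, so the pattern was not particular to the list. Median folds over 13 types were 4.77 in females and 4.28 in males for the listed genes, and 4.36 and 3.92 for *rpl7*. Sex, library and pool cannot be told apart in this difference, and why these genes took nearly the same share of UMIs in every type was not tested.

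**Figure D5:**
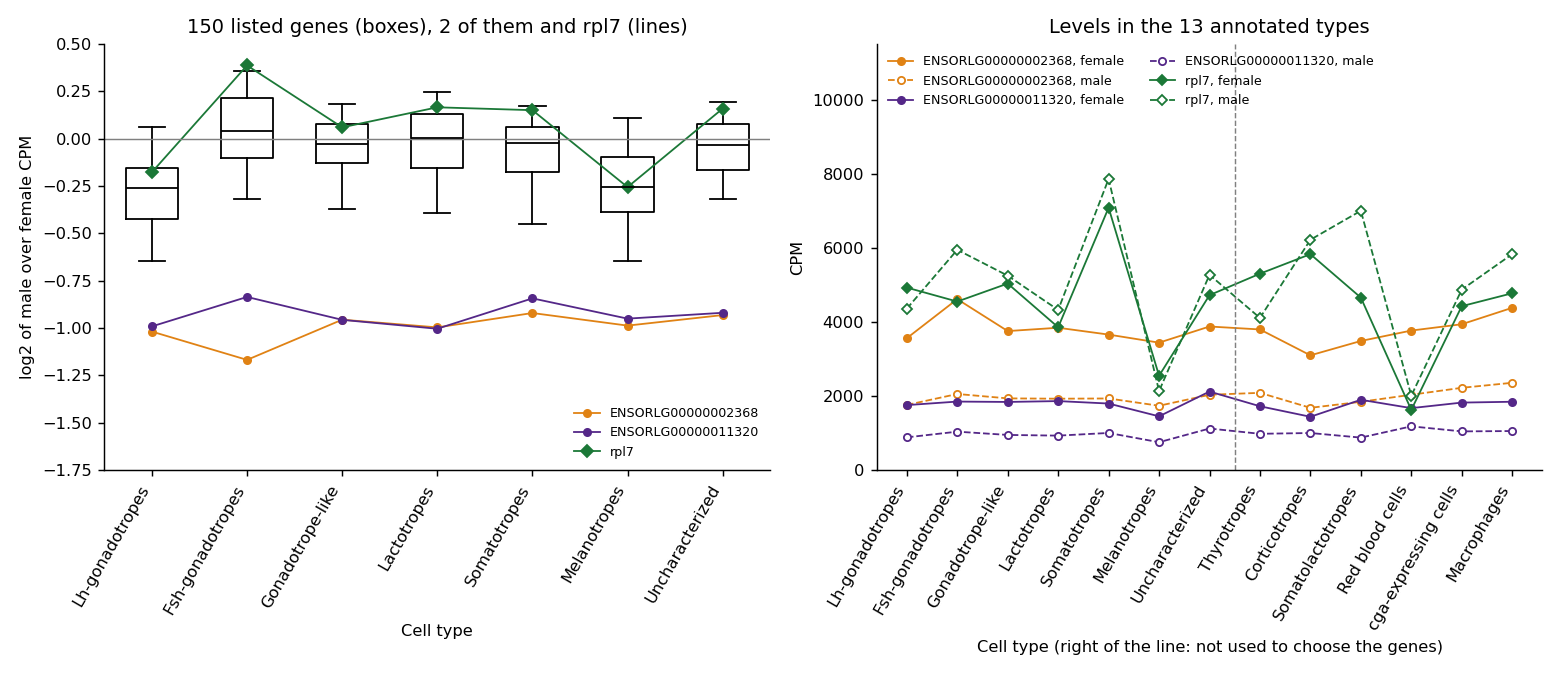
Left, log2 of male over female CPM of the 150 listed genes in the 7 types of the rule (boxes hold the middle 50%, whiskers reach the 5th and 95th percentile), with ENSORLG00000002368, ENSORLG00000011320 and *rpl7* as lines. Right, CPM of the same 3 genes in the 13 annotated types of females (solid lines, filled symbols) and males (dashed lines, open symbols), where ENSORLG00000002368 stays between 3095 and 4611 CPM in females and between 1678 and 2353 CPM in males while *rpl7* drops in melanotropes and red blood cells.

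Annotated clusters inside a type showed how even the genes were below the level the rule used. The uncharacterized cells were divided mainly into clusters 13 and 14. Between them 44 listed genes in females (41.6% of all 315) and 49 in males (38.7%) differed by more than 1.5-fold, 31 and 38 of them being higher in cluster 14. The direction was not counted over all 315 genes. The median of cluster 14 over cluster 13 was 1.08 in each sex for the listed genes. Over all 315 genes it was 0.91 in females and 0.94 in males. *rpl7* was 5475 CPM in cluster 13 and 3368 CPM in cluster 14 of females, and 6213 and 4240 CPM in males. Lactotropes were divided into clusters 3 and 4, of which cluster 4 was deeper, at a median of 9911 UMIs where cluster 3 had 5829 in females, and of 8315 where it had 3956 in males. There 10 listed genes in females (24.1%) and 9 in males (21.0%) were past 1.5-fold. The clusters were made from these same counts, so the values are a description.

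The split of UMIs by gene structure was not used by the rule. In the listed genes a median of 94.7% of the split UMIs lay in exons, 0.129% in introns and 4.04% across an exon and an intron. The other genes above the floor had 0.0638% from introns at the median. More than 10% from introns was found in 5 listed and 6 other genes (3.49% of 315), and 147 listed genes had at least 50% from exons. *rpl7* had 64.0% exon, 36.0% spanning and 0.0497% intron UMIs.

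Cells of a type were compared after each was thinned to 2200 UMIs, with shallower cells left out, which removed 0 to 131 cells in each of the 14 groups of the rule. The listed genes were then found with at least 1 UMI in a median of 37.8% of the cells in male melanotropes and up to 63.7% in female gonadotrope-like cells. Without thinning these values were 84.0% and 82.2%. *rpl7* was found in 91.8% to 100% of the thinned cells of the 14 groups. The shallower red blood cells numbered 350 (female) and 534 (male). In the 21 and 25 that reached this depth the listed genes were found in a median of 14.3% and 20.0% of the cells. The variance over the mean across cells, which is near 1 for random sampling of molecules, had a median over the listed genes of 1.06 to 1.11 in the 14 groups. In the other genes above the floor it was 1.36 to 1.79, and in *rpl7* 1.66 to 3.64. Under 1.2 were 93 to 111 of the 150 listed and 29 to 57 of the 165 other genes. The other genes and *rpl7* had higher mean counts per cell than the listed genes. In female *lhb*-expressing gonadotropes the other genes had a median of 2.55 UMIs and the listed genes 0.968 UMIs, and *rpl7* had 11.3 UMIs. The part of these differences in the variance over the mean was not tested, so the values do not rank *rpl7* against the listed genes.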

How the data were processed

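The authors deposited unnormalized UMI counts of every gene in every cell, the same counts divided into exon, intron and spanning parts, the annotation of the cells, and names of marker genes, in males with mean levels and adjusted p-values. The authors' mean levels and p-values were not used. The submitters' processing notes name Cell Ranger and Seurat. Which aligner, build and annotation they ran was not given in the sources used here. Per the paper's methods, doublets were removed before deposit, and no caller was run. Per-cell sums of the matrix equalled the deposited totals in all 2592 female and 3804 male cells.

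UMIs were summed by deposited cell type and sex and divided by all UMIs of the group, as CPM. In males 1 cell with a misspelled type was joined to the *lhb*-expressing gonadotropes. Intervals are exact Poisson 95% intervals, those of *rpl7* per listed UMI take the listed UMIs as fixed, and the interval of a ratio joins both counting errors. All cover counting error only. With 1 library per sex no test was made, and counts of listed genes are set beside the share over all 315 genes above the floor. To compare cells, each was thinned to 2200 UMIs.

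The genes, lists and thresholds were chosen with earlier results of these data known. Genes to be named were *rpl7*, those of lowest ratio, those beside the end of the list and those furthest from their mean elsewhere. Of these, few are printed, since the tables used here pair none of the 150 identifiers with a name. The reference gene table matched 0 identifiers, so lists by function, promoters and proteins were not analysed here, and the usual qPCR reference genes other than *rpl7* could not be looked up. *cga*-expressing cells and macrophages, 2 sex-differing genes shown in full, the 1.7-fold limit and the total without *cga* and the GFP cassette were chosen after seeing the data. The ranking code was run on simulated counts with flat genes among genes of large set differences. That checks the code only, since the simulation had no hormone-rich groups and no smooth slope of ratios. Versions were Python 3.11.15, pandas 2.3.3, scipy 1.17.1, numpy 2.4.6 and matplotlib 3.10.9.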

Additional observations from a re-analysis of the deposited data

How the results depend on the processing

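No paired analysis was possible because each sex is 1 library, and for the same reason no replicate could be left out. The list was made again under 24 settings, 22 planned and 2 chosen after seeing the data, and 16 of them kept 100 or more of the 150 genes. The rank of *rpl7* ran from 80 to 1708, and it was among the 150 in 6 settings. The median ratio of the 150 genes was 2.85. The counting intervals of the single genes had a median lower bound of 2.43 and a median upper bound of 3.33, which is no interval of the median itself. Other totals gave a median of 1.73, with 55 genes shared and a ratio of 2.31 for *rpl7* (7 hormone-encoding genes left out), or 1.64, 76 and 2.37 (median-of-ratios factors). Leaving out *cga* and the GFP cassette too, a setting added after seeing the data, gave 1.65, 45 and 2.24. Other floors gave a median of 2.39 and 63 shared genes (50 CPM), 3.57 and 71 (200 CPM), or 2.14 and 25 (no floor). Without melanotropes the values were 1.66, 78 and 2.04, and without melanotropes and hormone-encoding genes together, also added later, 1.62, 51 and 2.31. Without cells above the 95th percentile of UMIs, which removed 35 of 53 male melanotropes, the median was 2.43 and the *rpl7* ratio 3.04. The female library alone gave 2.05 and 2.78. The *rpl7* ratio was 4.40 from exon UMIs, 3.26 in thinned cells and 2.79 without somatotropes. In thyrotropes, corticotropes and somatolactotropes, 816 of 900 pairs of listed gene and group were within 1.5-fold, and 503 within 1.2-fold. Of all 315 genes, 67.9% to 85.4% were within 1.5-fold in these groups taken singly. In red blood cells 77 of 300 listed pairs were within 1.5-fold, beside 16.5% of all genes in females and 22.5% in males. There 31 pairs were within 1.2-fold and 129 within 2-fold. No share over all genes was computed at 1.2-fold or 2-fold. Except for the fewer cells or types used in some settings, the cause of these shifts was not tested. At their lowest value 16 listed genes had fewer than 100 UMIs.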
